A study of Homo sapiens with 4 samples.

Results

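Aminoacyl-tRNA synthetases are the enzymes that load each transfer RNA with its matching amino acid before protein synthesis. Most amino acids have a cytosolic enzyme and a separate mitochondrial enzyme, both encoded in the nucleus, while glycyl-tRNA synthetase (GARS1) and lysyl-tRNA synthetase (KARS1) serve both compartments from a single gene. The alanyl enzymes AARS1 (cytosolic) and AARS2 (mitochondrial) are also described as lactyltransferases, which attach lactate to lysine side chains. Several cytosolic enzymes are bound together in a multi-synthetase complex, and many cytosolic synthetase genes are known targets of ATF4, the transcription factor of the amino acid response.

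The 36 genes of the list are 18 cytosolic, 16 mitochondrial and 2 dual-compartment synthetase genes, taken by symbol from 19974 protein-coding genes of RefSeq GRCh38.p14 on chromosomes 1 to 22 and X. H3K9la, lactylated lysine 9 of histone H3, was mapped by ChIP-seq in KYSE30, an established line of oesophageal squamous cell carcinoma. The study has an anti-H3K9la library and an input library in each of 2 arms, named sg3 and V2. The labels explain neither name and state no treatment, genotype or clone, and the series title presents SIRT3, a mitochondrial sirtuin, as an eraser of the mark. Each arm has 1 deposited peak list and no replicate, so differences between sg3 and V2 compare 2 lists and carry no test. The lists, on hg38, hold 56875 regions (records of the list) for sg3 and 40332 regions for V2, and the sources used here give no read depth. GEO files the list named V2 with that arm's input library, and it was used as the H3K9la list of V2. A gene was counted when any base of a region lay within 1 kb of its lower or higher coordinate. Fold enrichment (ChIP pileup over background) and -log10 q are the authors' peak-caller values and rank regions within 1 list only. As a check of the labelled line, 10 of 10 squamous epithelial genes had a gene-end region in sg3 and 8 of 10 in V2. Of all protein-coding genes 47.2% had one in sg3 and 28.8% in V2. At a -log10 q of at least 10 the squamous counts were 8 and 6. TP63 (-log10 q 8.94) and KRT5 (7.01) were in sg3 alone. The liver genes had a gene-end region in 0 of 6 cases in each list (95% CI up to 45.9%).

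Promoter sequences are shown for 5 genes, because the position of the regions against the start of the gene is the pattern that most members share. They run 5′ to 3′ on the gene's strand, from 250 bases before to 50 bases after the annotated start, as RefSeq gives them on GRCh38.p14. Capitals mark bases inside an sg3 region. AARS1 is the lactyltransferase gene of the cytosol (chr16:70289457-70289756, minus strand), QARS1 has the strongest region among members of both lists (chr3:49104708-49105007, minus), and NARS2 has the strongest among members of sg3 alone (chr11:78574815-78575114, minus). GARS1 (chr7:30594485-30594784, plus) and HARS1 (chr5:140691321-140691620, minus) were added after their values were seen, as the gene with most promoter bases in an sg3 region among the members counted and as a gene without a region.
AARS1: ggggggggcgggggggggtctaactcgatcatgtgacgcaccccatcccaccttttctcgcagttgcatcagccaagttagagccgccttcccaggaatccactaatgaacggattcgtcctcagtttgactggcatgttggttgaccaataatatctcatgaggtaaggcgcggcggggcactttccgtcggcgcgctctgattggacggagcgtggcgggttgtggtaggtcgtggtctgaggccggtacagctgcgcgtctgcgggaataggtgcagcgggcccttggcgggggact
QARS1: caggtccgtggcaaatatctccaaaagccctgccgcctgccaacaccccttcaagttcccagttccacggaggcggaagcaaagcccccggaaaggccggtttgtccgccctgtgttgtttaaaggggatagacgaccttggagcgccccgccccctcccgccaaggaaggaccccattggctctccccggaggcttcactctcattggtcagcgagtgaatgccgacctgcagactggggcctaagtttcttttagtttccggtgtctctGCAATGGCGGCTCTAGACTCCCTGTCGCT
NARS2: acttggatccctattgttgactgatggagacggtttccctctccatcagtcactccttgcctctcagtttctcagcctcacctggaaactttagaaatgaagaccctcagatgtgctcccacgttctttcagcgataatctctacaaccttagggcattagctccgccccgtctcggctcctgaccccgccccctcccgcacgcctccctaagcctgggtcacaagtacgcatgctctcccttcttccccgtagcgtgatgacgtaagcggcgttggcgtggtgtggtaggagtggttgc
GARS1: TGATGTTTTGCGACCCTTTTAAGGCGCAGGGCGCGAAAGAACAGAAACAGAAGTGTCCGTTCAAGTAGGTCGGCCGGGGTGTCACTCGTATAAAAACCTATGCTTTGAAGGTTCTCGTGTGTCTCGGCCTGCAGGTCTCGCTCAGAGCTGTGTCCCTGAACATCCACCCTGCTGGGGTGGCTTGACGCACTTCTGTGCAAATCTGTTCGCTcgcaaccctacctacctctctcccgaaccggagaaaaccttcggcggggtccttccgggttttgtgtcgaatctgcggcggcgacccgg
HARS1: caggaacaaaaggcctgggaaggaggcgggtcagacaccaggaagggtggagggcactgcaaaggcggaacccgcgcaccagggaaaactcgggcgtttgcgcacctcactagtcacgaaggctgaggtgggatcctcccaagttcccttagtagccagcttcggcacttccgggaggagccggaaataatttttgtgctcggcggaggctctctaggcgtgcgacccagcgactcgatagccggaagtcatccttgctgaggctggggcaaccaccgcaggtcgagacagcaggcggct
None of the AARS1 and NARS2 promoter bases lay in an sg3 region, although both genes were marked. At QARS1 the 29 bases in capitals are the outer edge of a region that begins just inside the gene. At GARS1 211 bases lay in a region that stops 40 bases before the gene. No base of these 5 promoters lay in a V2 region.

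The synthetase genes were marked at an end in 23 of 36 cases in sg3, which is 63.9% (95% CI 46.2 to 79.2%), and in 12 of 36 in V2, which is 33.3% (95% CI 18.6 to 51.0%). Of all protein-coding genes, 47.2% were marked in sg3 and 28.8% in V2. All 12 members marked in V2 were also marked in sg3, as were 5643 of the 5743 protein-coding genes marked in V2. Of all genes 28.3% were in both lists. The sg3 list alone marked 11 members (30.6% of them, against 18.9% of all genes), the V2 list alone marked 0 (0.501% of all genes), and 13 had a region in neither list (52.3% of all genes). These intervals cover counting error only, and the genes of a list are not replicates.

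**Figure D1:**
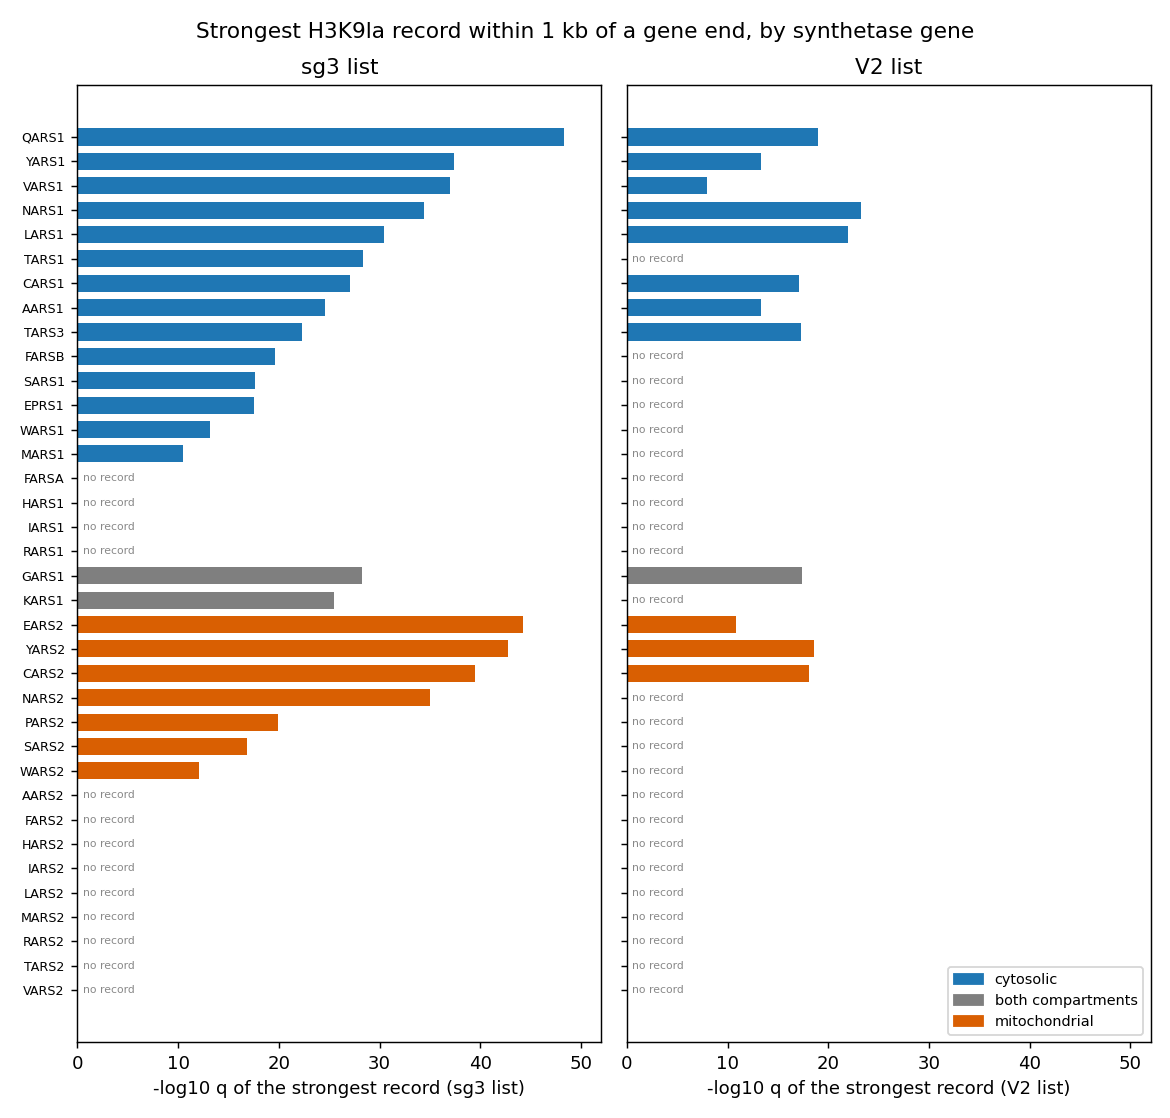
Bars give the -log10 q of the strongest region within 1 kb of a gene end for each of the 36 synthetase genes, in the sg3 list (left) and the V2 list (right), coloured by the compartment of the enzyme; the scales of the lists are not comparable. QARS1 leads the sg3 panel at 48.3, and all 12 genes with a V2 bar also have an sg3 bar.

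Cytosolic synthetase genes were marked more often than mitochondrial ones in both lists. In sg3, 14 of 18 cytosolic genes (77.8%, 95% CI 52.4 to 93.6%) and 7 of 16 mitochondrial genes (43.8%, 95% CI 19.8 to 70.1%) had a gene-end region. In V2 these were 8 of 18 (44.4%, 95% CI 21.5 to 69.2%) and 3 of 16 (18.8%, 95% CI 4.05 to 45.6%). The intervals of the compartments overlap in each list, and the difference was not tested because genes of a single library are not replicates. The mitochondrial share in sg3 lay near the 47.2% of all genes. When regions shared with the end of another protein-coding gene were left out, 11 cytosolic and 4 mitochondrial genes remained in sg3, beside 33.9% of all genes. In V2 they were then 5 and 2, beside 21.1%. The compartments lay closer together when annotated starts alone were counted, which could be done for 14 genes of each. In sg3 10 cytosolic and 8 mitochondrial genes, FARS2 among them, then had a region (48.9% of all genes), and in V2 4 and 2 (29.6% of all genes).

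Matched by amino acid, and with regions shared with other genes counted, the cytosolic gene was the marked one wherever the genes of a pair differed in sg3. Among 15 amino acids with a separate enzyme in each compartment (EPRS1, which loads both glutamate and proline, stands in 2 of them), sg3 marked both genes for 7, the cytosolic gene alone for 5, the mitochondrial gene alone for 0, and no gene for 3. The 5 were alanine, leucine, methionine, threonine and valine. The 3 without any region were histidine, isoleucine and arginine. All sg3 regions of AARS1, MARS1, WARS1, CARS2, EARS2 and SARS2 were shared with the end of another gene. With shared regions left out, tryptophan was marked in sg3 at the mitochondrial gene alone, and alanine and methionine at no gene. Cysteine, glutamate and serine were then marked at the cytosolic gene alone. Phenylalanine, whose cytosolic enzyme has the subunits FARSA and FARSB, was left out of the pairs. By gene ends, sg3 marked FARSB and neither FARSA nor FARS2, but FARS2 had an sg3 region over its annotated start. In V2 both genes were marked for cysteine and tyrosine, the cytosolic gene alone for 4 amino acids, and the mitochondrial gene alone for glutamate, where EARS2 had a region and EPRS1 did not.

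**Figure D2:**
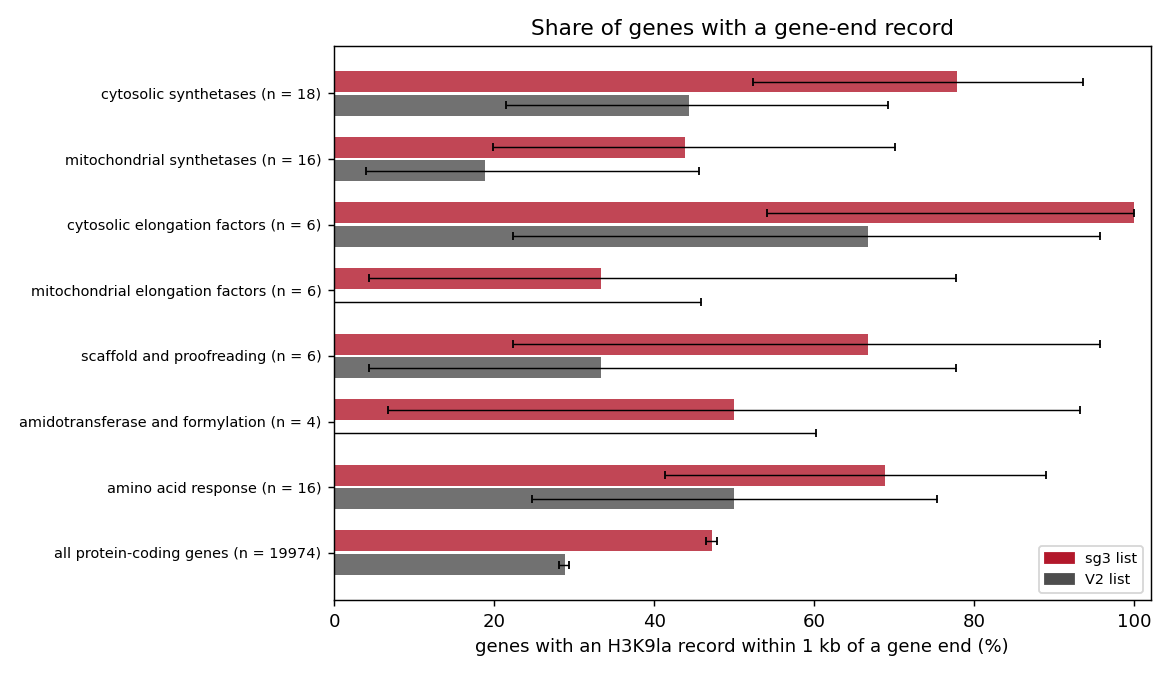
Bars give the percentage of genes with a region within 1 kb of a gene end in sg3 (red) and V2 (grey) for synthetases by compartment, companion gene lists and all protein-coding genes; lines are exact 95% confidence intervals, which cover counting error only. Cytosolic synthetases reach 77.8% in sg3 and mitochondrial ones 43.8%, beside 47.2% of all genes. The row of mitochondrial elongation factors also holds the initiation factors MTIF2 and MTIF3 and the recycling factor GFM2.

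The lactyltransferase genes differed from each other. AARS1 on chromosome 16 (70252298 to 70289506) had sg3 regions on either side of its start, at chr16:70289053-70289455 inside the gene (fold enrichment 3.90, -log10 q 13.8) and at chr16:70290116-70290627 before it (5.88, 24.6). In V2 it had the outer region, chr16:70290086-70290649 (4.66, 13.3), with its summit at the same base, 70290417, as in sg3. The inner region had no V2 partner. That outer summit lay 911 bases from AARS1 and 650 bases inside DDX19B, an RNA helicase gene that begins at 70289767 on the other strand, so the V2 mark of AARS1 is also one of DDX19B. AARS2 on chromosome 6 (44298731 to 44313347) had no region near it: the closest ended 32007 bases away in sg3 and 30824 bases away in V2.

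By -log10 q in sg3, the strongest gene-end regions of the cytosolic enzymes were found at QARS1, YARS1, VARS1 and NARS1, all in both lists. In V2 the order differed, with NARS1 (23.2) and LARS1 (22.0) highest and VARS1 (8.00) lowest of the 8 cytosolic genes. QARS1, the glutaminyl enzyme, had a region before its start at chr3:49105129-49105810 (fold enrichment 10.8, -log10 q 48.3), above 85.4% of sg3 gene-end regions. Its V2 counterpart, chr3:49105232-49105755, had 5.81 and 19.0. A weaker sg3 region just inside QARS1, chr3:49104004-49104736 (3.88, 8.81), had no V2 partner.

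YARS1, the tyrosyl enzyme, repeated this arrangement. The region outside its higher-coordinate end (32817358 on chromosome 1) was in both lists, at chr1:32817653-32818244 in sg3 (5.12, 37.4) and at chr1:32817792-32818220 in V2 (2.86, 13.3). The region inside, chr1:32816885-32817288 (3.32, 10.0), was in sg3 alone. S100PBP lies over the same stretch, from 32816562.

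NARS1, the asparaginyl enzyme, had a single region of nearly the same extent in the lists, chr18:57621284-57621761 in sg3 (9.33, 34.4) and chr18:57621286-57621751 in V2 (8.23, 23.2), inside the gene and far from any other. VARS1, the valyl enzyme, had the widest gene-end region of the members, 2362 bases at chr6:31775610-31777971 in sg3 (13.2, 37.0). Its V2 region was chr6:31775748-31777241 (5.18, 8.00). Both lie at its lower-coordinate end and have their summits inside VWA7. A weaker sg3 region of 9.54 lay over the other end, chr6:31795010-31795818, with no V2 partner. VARS1 and VARS2 lie in the major histocompatibility region, where the reference also has alternative contigs. These contigs hold 626 sg3 and 401 V2 regions, and how multiply aligned reads were handled is unknown here, so the values of these genes are uncertain.

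The other cytosolic genes of both lists were CARS1, LARS1 and TARS3. CARS1 and LARS1, the cysteinyl and leucyl enzymes, had regions inside the gene in both lists, with -log10 q values of 27.1 and 30.4 in sg3 and 17.1 and 22.0 in V2. LARS1 also had a region outside its end in both (20.6 in sg3, 9.61 in V2). The shared region of TARS3, a threonyl enzyme, lay outside its lower-coordinate end, toward TM2D3, with 22.3 in sg3 and 17.3 in V2.

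The cytosolic genes marked in sg3 alone were TARS1, FARSB, SARS1, EPRS1, WARS1 and MARS1, and each had a region that began 30 to 292 bases inside its start. TARS1, the threonyl enzyme, had the strongest, chr5:33440988-33441905 (fold enrichment 5.84, -log10 q 28.4). FARSB, a phenylalanyl subunit, had chr2:222655641-222656010 (5.11, 19.6) and a further region of 11.9. SARS1, the seryl enzyme, had chr1:109214082-109214748 (5.79, 17.6).

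EPRS1, which joins the glutamyl and prolyl enzymes in a single chain, had an inner region at chr1:220046051-220046445 (5.31, 17.5) and a weak outer one of 4.25. WARS1, the tryptophanyl enzyme and a known interferon-induced gene, had chr14:100375856-100376226 (4.94, 13.2), which also lies within 1 kb of WDR25. MARS1, the methionyl enzyme, had the weakest strongest region of all marked members, chr12:57488098-57488583 (3.91, 10.5), which falls under a fold enrichment of 4 and also lies inside ARHGAP9. FARSA, HARS1, IARS1 and RARS1 were marked in neither list.

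Of the dual-compartment genes, GARS1 was in both lists and KARS1 in sg3 alone. GARS1 on chromosome 7 had chr7:30594860-30595636 inside the gene in sg3 (4.92, 28.3) and chr7:30594913-30595353 in V2 (4.21, 17.4). Its region before the gene, chr7:30594008-30594695 (4.58, 13.4), was in sg3 alone. KARS1 on chromosome 16 had chr16:75647211-75647628 inside (6.22, 25.5) and a region before the start with a -log10 q of 2.85, the lowest of any member region. Both lie within 1 kb of the start of TERF2IP, a telomere protein gene on the other strand.

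Of the mitochondrial genes, EARS2, YARS2 and CARS2 were in both lists, and their sg3 regions were strong. EARS2, the glutamyl enzyme, had chr16:23557649-23558326 in sg3 (6.69, 44.2) and chr16:23557745-23558273 in V2 (3.05, 10.8). These lie before EARS2, with summits 267 and 272 bases inside UBFD1, so the start of UBFD1 is nearer than that of EARS2. YARS2, the tyrosyl enzyme, had chr12:32755346-32755858 inside the gene in sg3 (9.14, 42.8) and chr12:32755459-32755830 in V2 (5.55, 18.6), with no other gene within 1 kb.

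CARS2, the cysteinyl enzyme, overlaps the start of ING1, a growth-inhibitor gene on the other strand. A 1953-base sg3 region, chr13:110713231-110715183 (5.96, 39.5), covered the end of CARS2, and a further one of 29.8 lay inside the gene. The wide region spanned 2 V2 regions, chr13:110713706-110714071 (3.89, 18.1) and chr13:110714208-110715091 (3.19, 11.2). Among the 30 members with a known strand, it was the only sg3 region to cover the outer 5′ end of its gene.

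The mitochondrial genes in sg3 alone were NARS2, PARS2, SARS2 and WARS2. NARS2, the asparaginyl enzyme, had chr11:78574262-78574764 (8.11, 35.0), above 73.1% of sg3 gene-end regions and the strongest member region without a V2 partner. PARS2, the prolyl enzyme, had chr1:54763925-54764431 (5.92, 19.9). WARS2, the tryptophanyl enzyme, had regions on both sides of its start (12.1 inside, 8.71 before). SARS2, the seryl enzyme, had chr19:38931104-38931560 (5.43, 16.8), which lies inside MRPS12, a mitochondrial ribosomal protein gene that begins beside it on the other strand.

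AARS2, FARS2, HARS2, IARS2, LARS2, MARS2, RARS2, TARS2 and VARS2 were the mitochondrial genes marked in neither list. HARS1 and HARS2, the histidyl genes, start 84 bases apart in opposite directions, and this shared start held no region. The nearest sg3 region was 1235 bases past the 3′ end of HARS2, just outside the window. By the nearest region of each counted gene in each list, the V2 region of AARS1 lay farthest from its gene, at 580 bases. FARS2, the phenylalanyl enzyme, had no region at its outer ends, but an sg3 region of 7.01 at chr6:5260422-5261036 covered its annotated start at 5261007 inside the gene.

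Whether a marked synthetase gene was also in V2 went with the strength of its sg3 region. Of members whose strongest sg3 region had a -log10 q from 10 to 20, 0 of 8 were in V2 (95% CI up to 36.9%), against 31.7% of all genes in that range. From 20 to 30 they were 4 of 6, against 59.9%, and from 30 upwards 8 of 9, against 90.5%. NARS2 was the exception in the upper range. KARS1 and TARS1 were the exceptions in the middle range. The strongest sg3 regions of members in both lists had a median -log10 q of 35.7 (37.5 for all such genes), and those of members in sg3 alone 17.6 (14.7 for all such genes).

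Regions at synthetase genes were mostly narrow, and at members of known strand most lay beside the outer 5′ end rather than over it. The strongest sg3 region per marked member had a median width of 513 bases, against 716.5 bases for all marked genes. It reached 1 kb in 2 of 23 members (8.70%) and in 33.0% of marked genes overall. Median fold enrichment was 5.88 at members and 5.61 over all marked genes, and median -log10 q was 27.1 and 25.7. In V2 the median width was 488.5 bases at members and 570.0 bases over all marked genes.

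For 30 members the strand was known from the promoter table, and all 19 of these that were marked in sg3 had their regions at the 5′ end. The 3′ end held a region in 0 of 19, whereas among all marked genes of known strand 5.02% had one at the 3′ end only and 11.6% at both ends. LARS1, TARS3, VARS1 and YARS1 were marked but are not in the table. TARS3 and VARS1 had sg3 regions at both ends, so each had one at its 3′ end whatever its strand. A region covered the outer 5′ end in 1 of the 19 (5.26%), against 37.5% of genes marked at the 5′ end. Genes with an sg3 region over the outer 5′ end make up 17.5% of all genes with a strand. VARS1, outside this count, had an sg3 region over each of its ends. In 10 of 19 members the regions lay inside the gene only (33.1% of all genes marked there, 15.4% of all genes), in 6 on both sides of the start (1468 of 7355 genes marked there, 9.28% of all genes), and in 2 before the gene only (9.44% of genes marked there, 4.39% of all genes). In V2, with 8 marked members of known strand, 0 had a region over the start (23.6% of genes marked there, 6.54% of all genes). Regions lay on both sides in 1 (16.8% and 4.64%), inside only in 4 (43.7% and 12.1%) and before only in 3 (15.9% and 4.4%). The 3 were AARS1, EARS2 and QARS1.

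**Figure D3:**
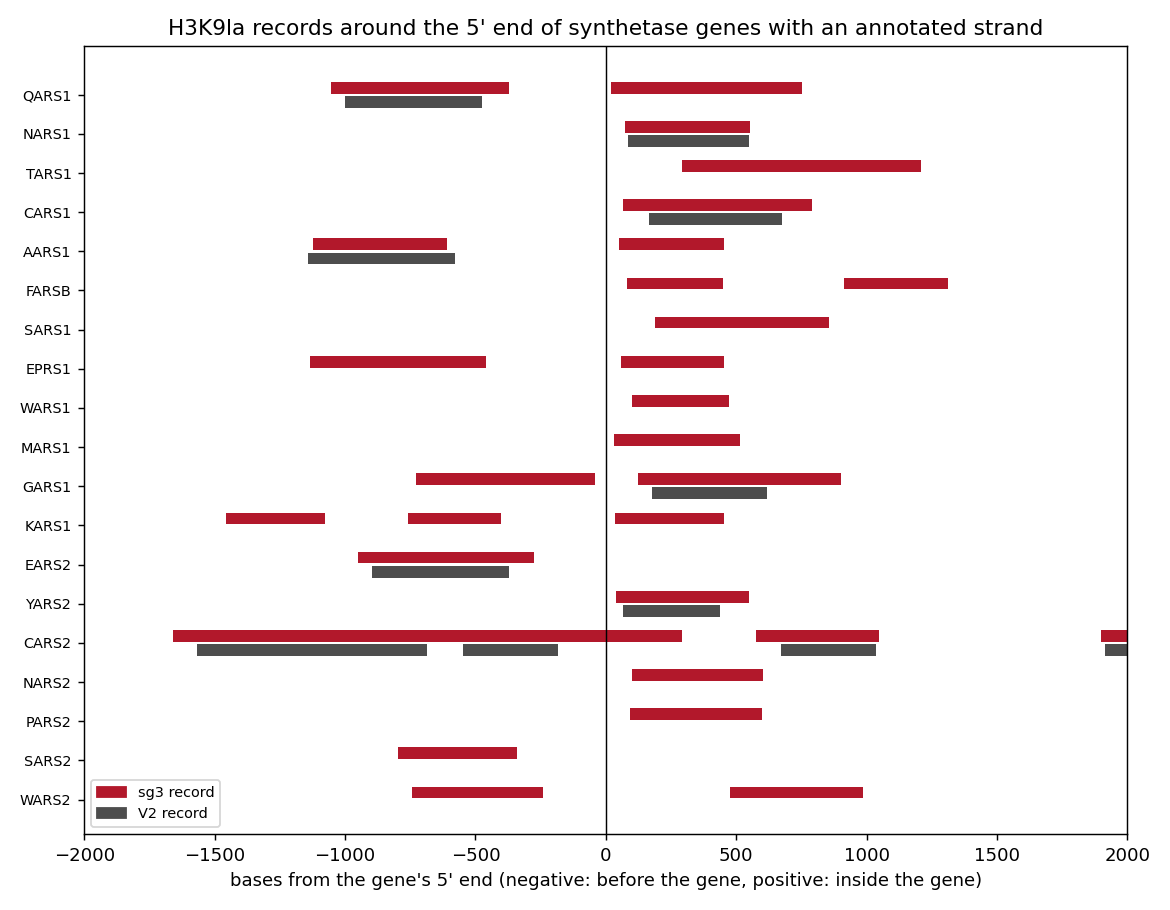
Each row is a marked synthetase gene with a known strand, aligned at its 5′ end (black line) and drawn to scale in bases, with sg3 regions in red and V2 regions in grey beneath. Red bars begin just to the right of the line in most genes, and CARS2 is the gene whose bar crosses it.

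The 6 genes with sg3 regions on both sides of an uncovered start were AARS1, EPRS1, GARS1, KARS1, QARS1 and WARS2. The uncovered stretch was 660 bases at AARS1, 520 at EPRS1, 164 at GARS1, 437 at KARS1, 392 at QARS1 and 715 at WARS2. Over all 1468 such genes its median was 413 bases (interquartile range 286 to 589.5). In V2 CARS2 had this arrangement, with 856 bases between its regions, against a median of 536 over 733 genes.

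**Figure D4:**
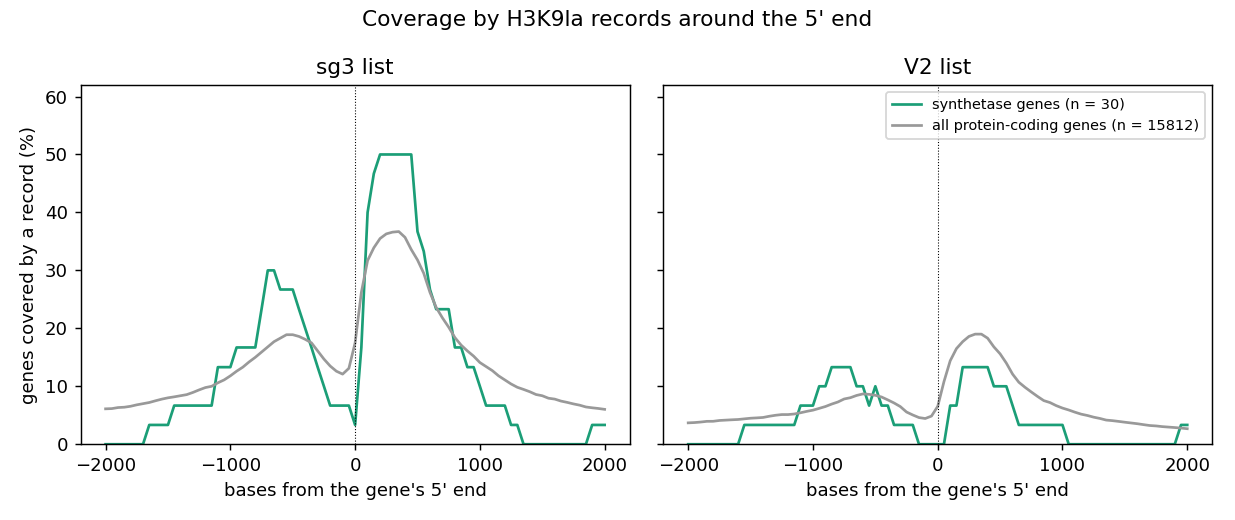
Lines give the percentage of genes covered by a region at each position around the 5′ end, for 30 synthetase genes (green) and all protein-coding genes of known strand (grey), in sg3 (left) and V2 (right). In sg3 the synthetase line reaches 15 of 30 genes at 200 bases inside the gene and 3.33% at the start itself, where the line of all genes is at 17.5%.

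Summits inside the gene were more frequent in sg3 than in V2. An sg3 gene-end region had its summit inside the gene in 21 of 36 members (39.1% of all genes), and a V2 region in 6 of 36 (22.5% of all genes). The 6 were CARS1, CARS2, GARS1, LARS1, NARS1 and YARS2. By compartment these were 14 of 18 cytosolic and 5 of 16 mitochondrial genes in sg3, and 3 of 18 and 2 of 16 in V2. Of the 35 sg3 regions at members 14 overlapped a V2 region, against 53.3% of all sg3 gene-end regions. All 15 V2 regions at members overlapped an sg3 region, against 96.7% of all V2 gene-end regions.

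Catalytic class divides the synthetases by the architecture of their active site. In sg3 the marked genes were 11 of 18 class I genes and 11 of 17 class II genes. In V2 they were 8 of 18 and 4 of 17, with overlapping intervals (21.5 to 69.2% and 6.81 to 49.9%). EPRS1, which holds an active site of each class, was left out of this count. Of all genes 47.2% were marked in sg3 and 28.8% in V2. Of the 7 listed members of the multi-synthetase complex (EPRS1, IARS1, KARS1, LARS1, MARS1, QARS1 and RARS1), 5 were marked in sg3 and 2 in V2, beside 10 and 6 of the 12 cytosolic genes outside it.

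Several synthetase promoters held the letters of an amino acid response element, the kind of site that ATF4 binds. The motif TGATGNAA, searched on both strands, stood in 6 of 30 member promoters and in 2.52% of all promoters of the same length. Its matches are written on the gene's strand, with the motif in capitals and 10 bases on either side, from the RefSeq promoters of GRCh38.p14. They were chosen after the motif was counted.
AARS1 (chr16:70289676-70289703): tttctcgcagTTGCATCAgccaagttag
CARS1 (chr11:3057408-3057435): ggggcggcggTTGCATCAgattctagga
IARS1 (chr9:92293693-92293720): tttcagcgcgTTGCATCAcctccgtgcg
MARS1 (chr12:57488054-57488081): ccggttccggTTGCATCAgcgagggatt
NARS1 (chr18:57621805-57621832): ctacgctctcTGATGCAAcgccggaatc
YARS2 (chr12:32756077-32756104): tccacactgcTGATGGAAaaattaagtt
The first 4 carry the motif on the opposite strand as TTGCATCA, and NARS1 carries the same 8 letters read forward. The match begins 187 bases before the start at AARS1, 2 at CARS1, 13 at IARS1, 4 at MARS1 and 197 at YARS2, and 14 bases after it at NARS1. The genes with a match were in both lists (AARS1, CARS1, NARS1 and YARS2), in sg3 alone (MARS1) and in neither (IARS1). A match is a run of letters and is no evidence of a bound factor.

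Other promoter elements were also counted on both strands. The ETS core CCGGAAG stood in 15 of 30 member promoters (against 14.1% of all), among them both HARS1 and HARS2, whose windows share bases. CCAAT stood in 16 (53.3%, against 36.4%) and the E-box CACGTG, a palindrome, in 4 (13.3%, against 8.82%). The median GC content of the promoters was 60.3% for members in both lists, 60.7% for sg3 alone and 62.3% for neither, while over all genes it was 66.0%, 64.3% and 59.0%. Members in neither list thus had the highest median, and genes in neither list the lowest over all genes. The promoters lie at annotated starts, whereas marking was by outer gene ends, and these differ for FARS2 and CARS2. FARS2, in neither list, had 73.0% GC and 280 promoter bases in an sg3 region. The CARS2 promoter (56.0% GC) lies at 110706515, away from its marked end at 110713522.

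Genes that work beside the synthetases were counted in the same way, beside 47.2% of all genes in sg3 and 28.8% in V2. Cytosolic elongation factors, which bring loaded transfer RNAs to the ribosome or move it along, were marked in 6 of 6 cases in sg3 and 4 of 6 in V2. Of these, EEF1A1 had a fold enrichment of 14.1 (sg3) and 13.6 (V2), and EIF5A 6.49 (sg3) and 5.83 (V2). EEF2 (3.90) and EEF1D (2.68) were in sg3 alone. The mitochondrial list holds the elongation factors TUFM, TSFM and GFM1, the initiation factors MTIF2 and MTIF3, and GFM2, a recycling factor. These were marked in 2 of 6 cases in sg3, MTIF3 (6.89) and TSFM (2.83), and in 0 of 6 in V2 (95% CI up to 45.9%). With lists of equal length the sg3 counts were 5 for the cytosolic and 1 for the mitochondrial list. At a -log10 q of at least 10 they were 4 and 1.

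Of the mitochondrial amidotransferase and formylation genes, which correct or modify loaded mitochondrial transfer RNAs, QRSL1 (9.01) and GATC (4.67) were in sg3 alone, and GATB and MTFMT in neither list. Of the complex scaffolds and proofreading factors, AIMP2 (3.53) and AIMP1 (4.31) were in sg3 alone, DTD1 (6.38 in sg3, 3.43 in V2) and AARSD1 (3.64 in sg3, 3.32 in V2) in both, and the other 2 genes in neither.

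Amino acid response genes were marked in 11 of 16 cases in sg3 (68.8%, against 47.2% of all genes) and 8 of 16 in V2 (against 28.8%). The 3 in sg3 alone were SHMT2 (4.39) and PHGDH (3.52), enzymes of serine and glycine metabolism, and the stress sensor gene SESN2 (3.20). ATF3, a stress-induced transcription factor gene, had the strongest region of the list, with a -log10 q of 92.3 in sg3 and 78.9 in V2. ATF4, named after its values were seen, was in both lists (34.1 in sg3, 15.4 in V2). The 5 genes in neither list were EIF2AK4, ASNS, CHAC1, PSAT1 and SLC7A11. With lists of equal length the marked amino acid response genes were 9 in sg3 and 8 in V2. At a -log10 q of at least 10 they were 9 and 6.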

How the data were processed

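Per the submitters' processing notes, the build was hg38 and the tools were MACS2 2.2.9.1, Bowtie2 2.5.1, SAMtools 1.18, FastQC 0.12.1 and Trim Galore 0.6.10. Their settings, the control library and the read depth were unknown here. The authors deposited 1 narrowPeak list per arm, with a fold enrichment (a ratio), a -log10 p and a -log10 q per region. The deposited integer score and the -log10 p were not used, and the deposited summit offset was used by position. Positions were compared with RefSeq GRCh38.p14 gene ends, in Python 3.11.15 with pandas 2.3.3. Strand came from the RefSeq promoter table, which held 30 of 36 members. Counting was tested on simulated regions. A gene with several regions is described by the one with the highest -log10 q. Intervals are exact Clopper-Pearson 95% intervals. With 1 list per arm no p-value was computed. Named were AARS1, AARS2, GARS1, KARS1, each member of sg3 alone or of neither list, and the 4 shared members per compartment with the highest sg3 -log10 q (3 were mitochondrial). CARS1, LARS1 and TARS3 lie outside this rule and were named to account for every marked member. Up to 4 genes of each companion list were named, first those in 1 list alone. Outside this rule, amino acid response genes in neither list were named too. The members and lists were chosen with earlier results of these data known.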

Additional observations from a re-analysis of the deposited data

How the results depend on the processing

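Most counts moved by at most 1.5 times under thresholds of 5 or 10 on -log10 q, a fold enrichment of 4, lists of equal length, windows of 0.5 or 2.5 kb, summit placement, merging within 1 kb and a 5 kb limit for genes of 1 list. Marked members ranged from 20 to 25 in sg3 and from 7 to 14 in V2 under these and when only annotated starts were counted. Annotated starts, known for 30 members (14 cytosolic), gave 7 members in V2 and 7 in both lists, and 4 cytosolic genes in V2; fewer genes could be counted there. In sg3 this gave 10 cytosolic and 8 mitochondrial genes of 14 each, a smaller difference than by either gene end. The 2 marked mitochondrial translation factors in sg3 fell to 1 with lists of equal length and at a -log10 q of at least 10. At a fold enrichment of at least 4, 1 mitochondrial gene was left in V2. An alternative chosen after seeing the data left out regions shared with another gene's end. It gave 16 of 36 members in sg3 and 8 of 36 in V2, beside 33.9% and 21.1% of all genes, and 19 in neither list. It left 7 members in both lists and 1 in V2 alone (CARS2, whose sg3 regions also reach ING1). By compartment, 5 cytosolic genes were left in V2 and 4 mitochondrial genes in sg3. The V2 regions of the 12 members in both lists overlapped an sg3 region also at 50% of the shorter region and by summits within 250 bases. No paired analysis was possible because each arm has 1 peak list. Without replicates and read depth, a region missing from the V2 list is a region not called there, and its absence from the cells is not shown.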

Other observations

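Away from their ends, the bodies of synthetase genes held few regions, with FARSB as the exception. More than 1 kb from both ends, the 36 genes held 11 sg3 and 9 V2 summits, which is 5.48 and 4.49 per Mb, against 18.4 and 13.2 per Mb over all protein-coding genes. FARSB alone held 8 of the 11 and 8 of the 9, and 1 of its sg3 regions, with its summit 1107 bases inside the start, was also counted as a gene-end region. Without it the rates were 1.56 and 0.521 per Mb. The remaining 3 sg3 summits lay in CARS2 (2 regions) and at the inner start of FARS2. Of the CARS2 regions, chr13:110705664-110706060 (-log10 q 20.2) lay within 1 kb of the annotated start at 110706515. V2 had no region within 1 kb of that start.

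All other FARSB regions in the gene body lay toward its 3′ end. In sg3, 7 of them lay between 222568502 and 222579038 on chromosome 2 (hg38), with summits 1835 to 11832 bases inside the gene. Their strongest region, chr2:222571423-222572312, had 17.6-fold enrichment (-log10 q 70.2), with a -log10 q above every gene-end region of a synthetase gene in that list. V2 had 8 regions between 222568480 and 222583032, led by chr2:222570366-222571060 with 8.84 and 35.5. FARSB was thus marked in its body in both lists and at its start in sg3 alone. In the gene table FARSB is the one gene over this stretch.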
